A study of Mus musculus with 4 samples.

Results

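Open chromatin was described at 9 mouse genes that bring iron into red cell precursors and carry iron, glycine, glutathione and heme precursors into mitochondria. The genes are Tfrc, Slc11a2, Steap3, Slc25a37, Slc25a38, Slc25a39, Abcb10, Glrx5 and Tmem14c. Accessibility was mapped by ATAC-seq, a method that sequences the fragments a transposase releases from open DNA, in cells of whole fetal liver at embryonic day 14.5. There were 2 libraries from wild-type (WT) livers and 2 from hemogen knockout (KO) livers, with about 50000 cells per Omni-ATAC reaction. Hemogen is a nuclear protein of blood-forming cells, encoded by Hemgn, and the series title places it beside the chromatin remodeller BRG1 at promoters and enhancers of red cell precursors. The labels give neither the kind of knockout allele nor whether replicates came from separate embryos, so the p-values measure a spread that may be technical. A peak was assigned to a gene when its summit lay in the gene or, within 100 kb, had that gene's boundary as the nearest protein-coding gene boundary. Peaks of the 4 lists that overlapped by 1 bp or more formed 55290 merged regions, and 61 of these, holding 184 peaks, belonged to the 9 genes. Regions are numbered within each gene along the chromosome, and positions are those of the deposited lists, counted from 1.

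A red cell precursor takes up iron as transferrin bound to the transferrin receptor, which carries it into endosomes. There the iron is reduced and pumped into the cytosol, and a carrier of the inner mitochondrial membrane brings it to the site where ferrochelatase inserts it into protoporphyrin. Mitochondria also need glycine for the start of heme synthesis, a porphyrin precursor for its last steps, and iron-sulfur clusters, which tie heme synthesis to the iron supply. At this age the fetal liver makes most of the embryo's red cells.

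The windows of 250 bases before the RefSeq transcript starts (GRCm38.p6) are shown for the 7 genes of the promoter table, because a peak summit lay within 1 kb of the start in all 4 libraries at each of them. Capitals mark matches, on either strand, to the letters searched in all promoters. The window of Tfrc is chr16:32608646-32608895 on the plus strand, that of Steap3 is chr1:120271081-120271330 on the minus strand, that of Slc25a38 is chr9:120110132-120110381 on the plus strand, that of Slc25a39 is chr11:102407518-102407767 on the minus strand, that of Abcb10 is chr8:123983123-123983372 on the minus strand, that of Glrx5 is chr12:105032368-105032617 on the plus strand and that of Tmem14c is chr13:41016000-41016249 on the plus strand. All are written 5′ to 3′ on the gene's strand.
Tfrc start 1: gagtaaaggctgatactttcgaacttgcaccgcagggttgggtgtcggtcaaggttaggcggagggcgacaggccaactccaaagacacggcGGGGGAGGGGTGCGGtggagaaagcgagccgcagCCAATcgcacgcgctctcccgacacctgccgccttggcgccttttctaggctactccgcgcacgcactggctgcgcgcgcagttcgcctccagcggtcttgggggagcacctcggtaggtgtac
Steap3 start 1: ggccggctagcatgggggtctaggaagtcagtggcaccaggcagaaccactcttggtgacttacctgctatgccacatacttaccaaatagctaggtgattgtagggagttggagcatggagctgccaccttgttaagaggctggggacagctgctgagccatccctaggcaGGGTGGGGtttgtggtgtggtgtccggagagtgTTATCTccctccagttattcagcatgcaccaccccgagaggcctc
Slc25a38 start 1: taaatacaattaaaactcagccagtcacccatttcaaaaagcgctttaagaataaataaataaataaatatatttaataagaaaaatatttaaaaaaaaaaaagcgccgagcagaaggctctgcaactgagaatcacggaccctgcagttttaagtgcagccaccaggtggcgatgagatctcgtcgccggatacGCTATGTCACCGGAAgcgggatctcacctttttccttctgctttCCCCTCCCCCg
Slc25a39 start 1: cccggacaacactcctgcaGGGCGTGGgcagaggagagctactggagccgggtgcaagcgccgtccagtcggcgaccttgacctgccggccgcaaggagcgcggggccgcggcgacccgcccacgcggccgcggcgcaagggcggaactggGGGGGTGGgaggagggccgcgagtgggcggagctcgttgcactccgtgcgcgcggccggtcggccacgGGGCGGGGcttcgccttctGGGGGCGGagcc
Abcb10 start 1: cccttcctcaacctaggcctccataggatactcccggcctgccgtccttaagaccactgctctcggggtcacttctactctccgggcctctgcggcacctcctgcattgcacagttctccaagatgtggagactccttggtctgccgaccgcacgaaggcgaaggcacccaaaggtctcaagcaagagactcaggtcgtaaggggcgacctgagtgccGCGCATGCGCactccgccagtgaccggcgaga
Glrx5 start 1: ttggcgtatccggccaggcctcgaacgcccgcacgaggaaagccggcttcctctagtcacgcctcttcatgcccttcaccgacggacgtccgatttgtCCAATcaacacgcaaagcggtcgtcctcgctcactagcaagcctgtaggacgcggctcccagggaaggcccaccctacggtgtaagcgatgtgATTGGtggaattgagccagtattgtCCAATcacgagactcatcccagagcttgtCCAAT
Tmem14c start 1: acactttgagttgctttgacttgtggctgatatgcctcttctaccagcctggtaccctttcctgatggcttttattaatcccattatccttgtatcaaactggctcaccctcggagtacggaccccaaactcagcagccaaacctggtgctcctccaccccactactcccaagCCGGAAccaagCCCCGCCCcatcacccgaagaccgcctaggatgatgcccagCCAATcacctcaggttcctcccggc

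The promoter table held 11 starts for 7 of the 9 genes, and Slc11a2 and Slc25a37 had no window in it. The KLF letters CCNCNCCC occurred in 8 of the 11 windows, against 45.9% of all 32851 promoter windows of that length. The 8 windows belonged to Slc25a38, Slc25a39, Steap3, Tfrc and Tmem14c. Windows of 1 gene are not independent, and the 2 Tfrc windows overlap. The KLF letters matched 3 times in the printed window of Tfrc, in the overlapping run of capitals, 2 times at its other start and 4 times in Slc25a39. The GATA letters AGATAA or TGATAA occurred in 1 of the 11 windows, at the first start of Steap3, against 16.6% of all windows. The longer composite of an E-box part (CTG) followed by a GATA match occurred in none of the 11 and in 0.846% of all. The NRF1 palindrome occurred in Abcb10 only, as the run of capitals there, against 0.782% of all windows. CCAAT, the NF-Y letters, occurred 4 times in Glrx5 and in 4 of the 11 windows, against 33.8% of all. CCGGAA, the ETS letters, occurred in Slc25a38 and Tmem14c, against 12.0% of all. The CNC-bZIP letters TGACNNNGC occurred in Slc25a38, where the match runs into the ETS match, against 10.2% of all. A match is a run of letters and not a bound site.

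The lists differed in length and depth. They held 47858 and 34181 peaks in WT replicates 1 and 2, and 35426 and 43018 in KO replicates 1 and 2. The background that MACS2 used most often in each library, a measure of relative depth, was 5.67, 2.29, 2.49 and 3.8 fragments in the same order, so the deeper library of each genotype had the longer list. Peaks assigned to Hemgn itself numbered 6, 5, 6 and 6, and a boundary peak was present in all 4 libraries; without the allele's extent these peaks check nothing about the deletion. Markers of red cell precursors had a boundary peak in all 4 libraries at 9 of 12 genes. Gata1 had no boundary peak in any library, but a summit lay within 1 kb of a transcript start of Gata1 in all 4. Hepatocyte markers had a boundary peak in all 4 libraries at 4 of 10 genes (Afp, Serpina1a and Ttr at none). Macrophage markers had 1 at 1 of 10, Hmox1 (Marco, Cd5l, C1qa and Spic at none), and megakaryocyte markers at 2 of 5.

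**Figure D1:**
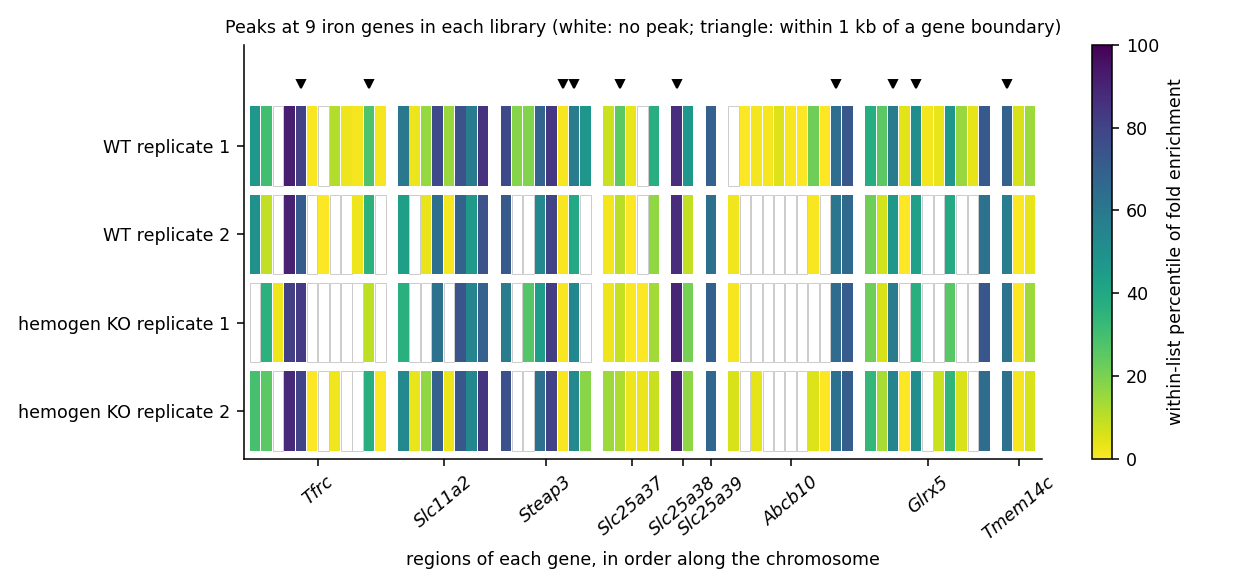
Peaks at the 61 regions of the 9 genes (columns, in order along each chromosome) in the 4 libraries (rows); colour is the percentile of a peak's fold enrichment within its own list, white means no peak, and triangles mark regions within 1 kb of either end of the gene. The 10 regions with a triangle are filled in every row, and of the 11 columns filled in a single row, 9 are filled in WT replicate 1.

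Of the 61 regions, 32 had a peak in all 4 libraries, or 52.5%, against 49.7% of all 55290 regions. A further 6 had a peak in 3 libraries, 12 in 2 and 11 in 1. Of the 11 regions seen in 1 library, 9 were in WT replicate 1, the deepest library, which also held 51.8% of all 13817 such regions. Of the 12 regions seen in 2 libraries, 9 were in WT replicate 1 and KO replicate 2, the deeper libraries of their genotypes, as were 53.5% of all regions seen in 2. Presence in 1 or 2 lists moved with depth. Inside a gene lay 40 of the regions, and the farthest summit from its gene was 45.3 kb away, upstream of Tfrc. A peak within 1 kb of a gene boundary was present in all 4 libraries at 7 of the 9 genes, against 55.4% of 21770 protein-coding genes. Slc25a39 had its only region at its transcript start, 0.089 kb from it but 1.21 kb from the gene's outermost boundary, and in Slc11a2 the nearest summit was 1.2 kb from a boundary.

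Uptake at the cell surface was represented by Tfrc, the transferrin receptor gene, with 10 and 8 peaks in WT replicates 1 and 2, against 5 and 8 in KO replicates 1 and 2. These fell into 12 regions, of which 4 were shared by all libraries. The start region, region 5 (chr16:32608473-32609595), held 1149 and 416 fragments at its summit in WT and 495 and 596 in KO. By summit fragments it stood at the 97.5, 94.7, 94.4 and 95.1 percentile of the 4 lists. Its fold enrichment over the local background stood lower, with percentiles of 80.8 and 71.3 in WT against 82.8 and 79.9 in KO. By median over the libraries, the region of Tfrc that ranked highest by fold was not the start but region 4 (chr16:32597629-32598433), 10.8 kb before the gene, with percentiles of 91.5 and 90.8 in WT against 81.3 and 88.5 in KO. Both KO percentiles were below both WT percentiles there, and in KO replicate 1 the start stood higher. Region 11, at the gene's far end, 25.1 kb from the start, was shared as well, at percentiles between 9.96 and 36.8. Region 10 (chr16:32626281-32626652), inside the gene, was the only one of the 61 regions present in both WT lists and absent from both KO lists, against 2.2% of all regions. Its folds were at the 1.52 and 2.58 percentile of the WT lists, near the bottom of both.

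Steap3 encodes the reductase that converts the iron released in the endosome to the form that can be transported. Its peaks numbered 8 and 5 in WT and 6 in each KO library, in 8 regions of which 5 were shared. The promoter table lists 4 starts for Steap3. Its strongest region, region 5 (chr1:120264784-120265820), lay 0.028 kb from an internal start and 5.82 kb inside the gene, with 840 and 309 summit fragments in WT and 386 and 459 in KO, and fold percentiles of 84.1 and 80.1 in WT and 82.1 and 80.3 in KO. The genotypes overlapped. The regions at the outermost boundary were weaker: region 7 held 180 and 61 fragments in WT and 75 and 106 in KO, and region 6 held 108 and 37 in WT and 44 and 70 in KO. By fold, region 6 stood at the 0.909 to 1.17 percentile of all 4 lists, although its fragments stood at the 51.3 to 66.6 percentile. The GATA letters printed above lie before the outermost start, within region 7, and not at the internal start with the strongest peak, whose window held none of the motifs searched.

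Slc11a2 encodes the divalent metal transporter that moves reduced iron out of the endosome. It had 7 peaks in each WT library and 4 and 7 in KO, in 8 regions of which 5 were shared. Region 6 (chr15:100422479-100423554), 1.2 kb from a gene boundary, was the strongest by fragments, with 1079 and 429 in WT and 522 and 590 in KO. Its percentiles by fragments were 96.8 and 95.3 in WT, 95.4 in KO replicate 1 and 94.98 in KO replicate 2. Region 8 ranked highest by median fold percentile, though below region 6 in KO replicate 1, and lay nearly midway to Letmd1, and only 1 of its 5 peaks had Slc11a2 as the nearest gene. Region 4 held 217 and 73 fragments in WT and 65 and 105 in KO; its rank by fold among the regions shared by all libraries was 61.0 and 55.6 in WT and 52.3 and 52.1 in KO. Both KO ranks were below both WT ranks.

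Slc25a37 encodes mitoferrin-1, the carrier that brings iron across the inner mitochondrial membrane of red cell precursors. It had 4 peaks in each WT library and 5 and 6 in KO, in 5 regions of which 4 were shared. All 5 stood below the middle of their lists by fold, and the percentiles of the 4 shared regions ran from 0.366 to 37.5. Region 2 (chr14:69240252-69241972), at the lower-coordinate boundary of the gene, held 197 and 71 summit fragments in WT and 56 and 83 in KO. Region 1 (chr14:69238190-69238803) held 117 and 41 in WT and 34 and 62 in KO. Region 5 (chr14:69252371-69254275) held 86 and 33 in WT and 25 and 38 in KO. Unscaled fragment numbers also follow depth, and in all 3 regions WT replicate 1 was highest and KO replicate 1 lowest. Region 4 (chr14:69244813-69245418) was the only one of the 61 regions present in both KO lists and absent from both WT lists, against 1.41% of all regions. Its 37 and 68 fragments gave folds at the 0.754 and 3.1 percentile of the KO lists, close to the lowest a list contained. The number of peaks at Slc25a37 was higher in both KO libraries than in both WT libraries, and the exact two-sided permutation test gave p = 0.3333, the smallest that 2 against 2 libraries allow.

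No list had a peak within 1 kb of the other end of Slc25a37, and the nearest summit to it was 32.3 kb away. That boundary lay in a stretch of chromosome 14 from 69254276 to 69697234 in which none of the 4 lists had a peak. The stretch was 443 kb long, longer than 98.3% of the 55269 stretches between regions, whose median was 9.54 kb. It touched 8 protein-coding genes of the RefSeq table, among them Slc25a37, Entpd4, Entpd4b and Loxl2. All 5 Slc25a37 regions lay just below it, so the accessible regions described here cover 1 end of the locus. Whether that end holds the transcript start was not determined, because neither the strand nor a start of Slc25a37 was available. Whether the stretch was inaccessible or was not mapped cannot be told apart from peak lists.

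Slc25a38, the mitochondrial glycine carrier whose loss causes sideroblastic anemia in humans, had 2 regions, both shared. Region 1 (chr9:120110252-120111044), 0.236 kb from the start printed above, held 1341 and 568 fragments in WT and 682 and 817 in KO. By fold it stood at the percentiles 86.5 and 87.2 in WT, against 89.9 and 90.4 in KO. With a median of 88.5 it came next to Tfrc region 4, at 89.6, as the highest of the shared regions, and by fragments it stood between the 98.9 and 99.1 percentile. Both KO fold percentiles were above both WT percentiles, whereas the scaled fragments overlapped. Slc25a39, a carrier that brings glutathione into mitochondria, had a single region (chr11:102406954-102408970) with 1382 and 554 fragments in WT and 715 and 785 in KO. These counts stood between the 98.7 and 99.3 percentile by fragments, but the local background was 29.2 times the library background in both WT libraries and 31.2 and 27.2 times in KO. The fold stood at percentiles of 69.2 and 63.6 in WT against 69.8 and 67.0 in KO. The genotypes overlapped.

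Abcb10 encodes an ATP-driven transporter of the inner mitochondrial membrane that, in mouse red cell precursors, binds and stabilizes mitoferrin-1. Its peaks numbered 10 and 4 in WT against 3 and 6 in KO, the widest spread within a genotype of the 9 genes. Of its 11 regions 5 were seen in 1 library, and 2 were shared. Start region 10 (chr8:123982269-123983523) held 934 and 430 fragments in WT and 485 and 588 in KO, with fold percentiles of 64.3, 60.7, 65.1 and 62.4. Region 11, 5.7 kb before the start, held 634 and 222 in WT and 221 and 340 in KO, with fold percentiles of 73.0, 66.1, 71.0 and 70.6. The genotypes overlapped at both.

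Glrx5, a mitochondrial glutaredoxin needed for iron-sulfur clusters, held 11 and 7 peaks in WT against 7 and 9 in KO. Its 11 regions included 6 that were shared, at the 97.5 percentile of all protein-coding genes. Start region 3 (chr12:105032093-105033264) held 1025 and 382 fragments in WT and 481 and 575 in KO, and the genotypes overlapped in rank. Upstream of it, region 1 (chr12:105025419-105026691) held 315 and 115 in WT and 90 and 158 in KO, and downstream region 8 (chr12:105050820-105051301), 10.1 kb past the gene, held 73 and 36 in WT and 23 and 37 in KO. Among the regions shared by all libraries, region 8 ranked at 17.9 and 28.0 by fold in WT and at 13.9 and 13.7 in KO. Tmem14c, which carries a porphyrin precursor into mitochondria, had 4 and 3 peaks in WT and 3 in each KO library, in 3 regions that were all shared. Its start region (chr13:41015985-41017307) held 652 and 254 fragments in WT and 272 and 372 in KO, and its fold percentiles were 69.0, 57.4, 62.1 and 63.3. The genotypes overlapped there in rank by fold.

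Fold and fragments ordered the regions differently. By fold, the median peak of the 9 genes stood at the 22.2, 28.7, 36.0 and 17.4 percentile of WT replicates 1 and 2 and KO replicates 1 and 2. By fragments, the same peaks stood at the 69.0, 66.6, 65.1 and 68.1 percentile, and by local background at the 78.9, 83.3, 79.0 and 82.6 percentile. The fold divides the fragments at the summit by the local background, which MACS2 takes from the DNA at and around the peak. Slc25a39, the Glrx5 start and the 4 shared Slc25a37 regions stood lower by fold than by fragments, with median percentiles of 68.1 against 98.99 at Slc25a39 and 56.7 against 94.2 at the Glrx5 start. Both quantities were recovered from the deposited fold and −log10 p. The summit fragments came out as whole numbers, within 0.05, for 100% of peaks. The local background, which need not be whole, was then computed from these fragments and the fold.

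**Figure D2:**
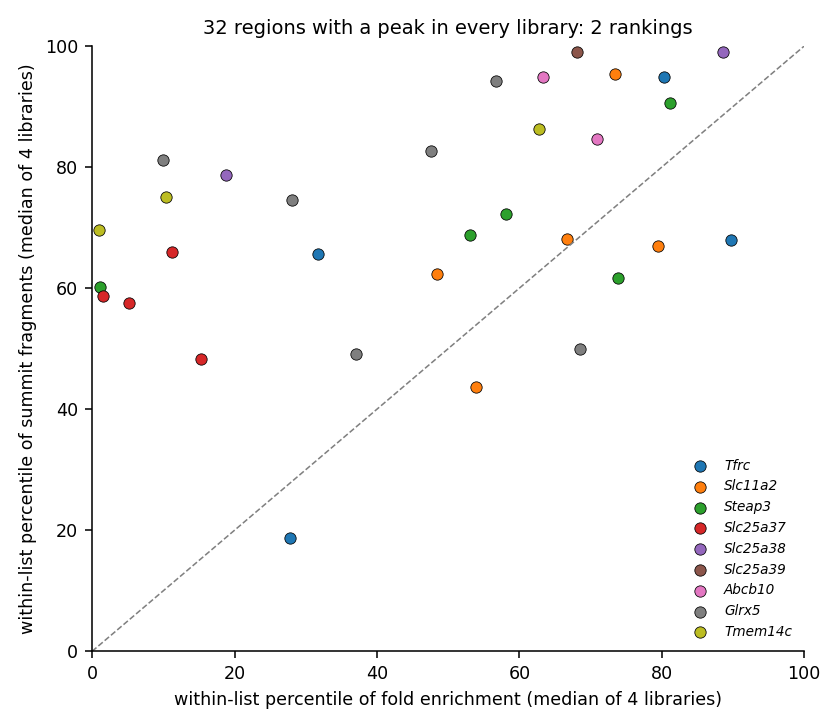
Each point is a region of the 9 genes with a peak in all 4 libraries (32 regions), placed by its median within-list percentile of fold enrichment (x) and of summit fragments (y), with colours for genes and a dashed line where the rankings are equal. The 4 Slc25a37 points lie at the left, with fold percentiles from 1.49 to 15.3 and fragment percentiles from 48.3 to 65.9, and the Slc25a38 and Slc25a39 start regions lie at the top.

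By rank of fold, no region of the 9 genes stood far apart between genotypes. Among the 32 shared regions, 8 ranked lower in both KO libraries than in both WT libraries, against 20.4% of all 27473 shared regions, and 4 ranked higher, against 19.2%. The 8 were Tfrc region 4, Slc11a2 regions 1 and 4, Steap3 region 1, Slc25a37 regions 2 and 5, and Glrx5 regions 2 and 8. The 4 were Tfrc regions 2 and 5, Slc25a37 region 1 and Slc25a38 region 1. None of the 32 had a gap of 10 points or more between the nearest libraries of the genotypes, against 2.16% lower and 2.36% higher over all shared regions. The widest gap was 4.05 points, at Glrx5 region 8. Ranked by summit fragments instead, 13 regions were lower in KO, against 24.2% of all shared regions, and none was higher, against 24.0%. With any library left out the counts by fold were 10 to 13 lower and 7 to 16 higher, since fewer libraries then had to separate. The shares of all shared regions with a library left out were not computed, so these counts cannot be read against them. Of the 10 shared boundary regions, 7 had their highest rank in KO replicate 1 and 3 in WT replicate 2, the shallower library of each genotype. Over all shared boundary regions, KO replicate 1 held the highest rank at 34.4%.

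Fragments at the summit were then compared on a log2 scale after cyclic loess scaling, in limma fitted over all 27473 shared regions, a comparison chosen after seeing the data. Regions without a peak in every list have no value in some library and were not tested. The fitted difference, KO minus WT, was negative at 27 of the 32 regions, with a median of -0.16, against a median of -0.0013 and 50.2% negative over all regions. The median was -0.10 without WT replicate 1, -0.057 without KO replicate 1 and -0.26 without KO replicate 2. None passed a Benjamini-Hochberg adjusted p of 0.05 in either direction, against 0.269% lower and 0.753% higher over all regions. The smallest adjusted p was 0.212; without KO replicate 2, 1 region was called lower (Tfrc region 11), against 5.88% of all regions in that fit. At an unadjusted p under 0.05 there were 4, all negative: Slc25a37 regions 2 and 5 and Glrx5 regions 1 and 8. Over all regions 16.3% had such a p, and 8.80% had it with a negative difference. Values in both KO libraries were below both WT libraries at 12 of the 32 regions, against 24.4% of all, and above at none, against 23.9%. The median of the 10 boundary regions was -0.043, and that of the 22 others was -0.20. Over all shared regions these medians were 0.039 at boundaries and -0.056 elsewhere.

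Slc25a37 had both KO libraries below both WT libraries at all 4 shared regions. Among 730 genes with 4 such regions, 2.19% had all 4 lower in this way, and 2.05% had all 4 higher. On the scaled log2 axis, region 2 stood at 6.76 and 6.67 in WT and 6.25 and 6.21 in KO, a difference of -0.48 (SE 0.18, adjusted p = 0.212 in limma). Region 5 stood at 5.65 and 5.56 in WT and 5.06 and 5.05 in KO, a difference of -0.55 (SE 0.23, adjusted p = 0.255). In Glrx5, region 8 stood at 5.42 and 5.69 in WT and 4.93 and 5.01 in KO, a difference of -0.58 (SE 0.24, adjusted p = 0.247). The spread within a genotype was smaller than the distance between genotypes at these 3 regions, and none passed the adjustment over all regions. At the starts of Slc25a38, Slc25a39, Abcb10 and Glrx5 the fitted differences were -0.0050 (SE 0.059), -0.0037 (SE 0.061), -0.0032 (SE 0.079) and -0.0060 (SE 0.074), with adjusted p from limma between 0.979 and 0.989. In bulk tissue, fewer cells of a type and less accessibility per cell cannot be told apart.

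**Figure D3:**
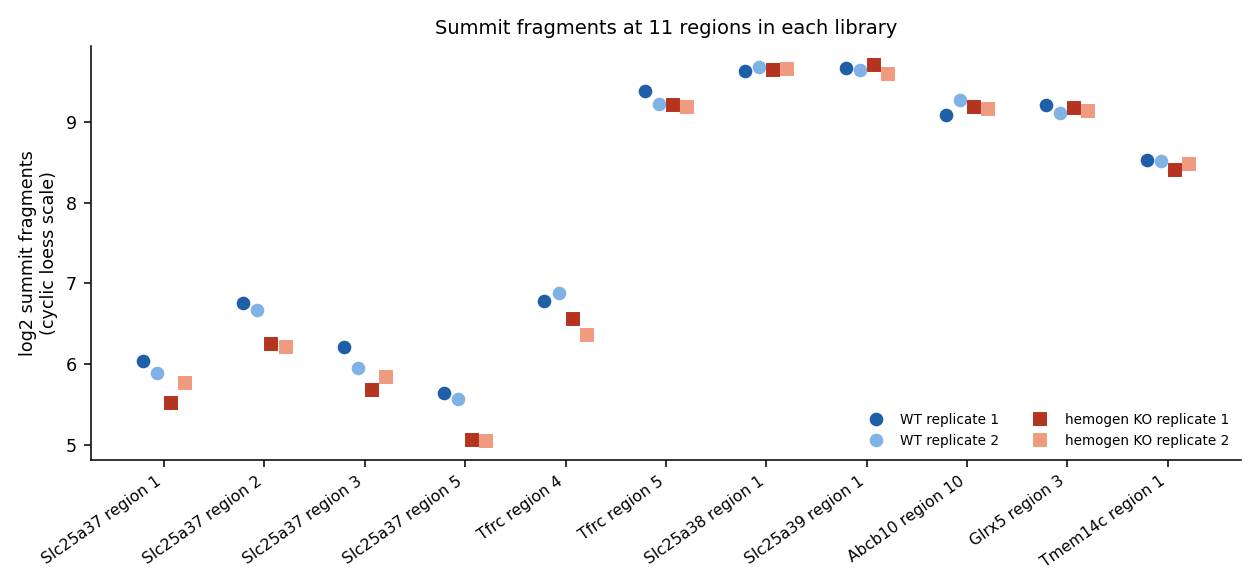
Summit fragments on the log2 scale after cyclic loess scaling (y) at 11 regions (x) in each of the 4 libraries, blue circles for WT and red squares for KO. At Slc25a37 region 2 the WT values of 6.76 and 6.67 lie above the KO values of 6.25 and 6.21, while the 4 libraries nearly coincide at the start regions of Slc25a38 and Slc25a39.

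The local background covers a stretch that can hold the peak and its neighbours, so it does not measure flanking DNA apart from them. Tmem14c regions 1, 2 and 3 had backgrounds of 78.2, 78.7 and 78.4 fragments in WT replicate 1. Their summits there held 652, 209 and 243 fragments. Local background was compared in the same way at the regions where it exceeded 1.2 times the library background in every library. This left 19762 regions, 30 of them from the 9 genes, without Tfrc region 2 and Glrx5 region 11. The fitted difference was negative at 26 of the 30, with a median of -0.13, against 0.0002 over all tested regions. The median was -0.20 without WT replicate 2, -0.21 without KO replicate 2 and -0.014 without KO replicate 1, where 19 of 35 differences were negative. In limma 2 regions fell in KO, against 0.562% of all tested regions, and none rose, against 1.14%. Both were at Slc25a37. An unadjusted p under 0.05 was found at 9 regions, all negative, and at 21.7% of all tested regions, while 11.3% of all had it with a negative difference. The local background of region 1 was 7.45 and 6.63 times the library background in WT and 4.85 and 4.71 times in KO, and that of region 3 was 9.55 and 8.91 times in WT and 6.83 and 6.78 times in KO. The genotypes did not overlap at either. The log2 differences were -0.56 (SE 0.11, adjusted p = 0.0315) and -0.44 (SE 0.096, adjusted p = 0.0498), or levels in KO 0.676 and 0.736 times those in WT. Region 2, at the gene boundary between them, had 9.58 and 8.61 in WT and 6.69 and 6.77 in KO (log2 difference -0.44, SE 0.10, adjusted p = 0.0595), and it did not pass.

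Both KO libraries were below both WT libraries at all 4 Slc25a37 regions, as at 7.1% of 465 genes with 4 tested regions, and 4.3% of those genes had all 4 higher. Regions 1 to 3 are neighbours and share part of their background, so these calls are not independent. Region 5, farther inside the gene, had 3.43 and 3.39 in WT and 2.61 and 3.20 in KO (log2 difference -0.30, adjusted p = 0.244 in limma), and its difference was -0.12 (adjusted p = 0.795) without KO replicate 1 and -0.46 (adjusted p = 0.0089) without KO replicate 2. The 2 calls rested on WT replicate 1: without it the log2 differences were -0.47 and -0.37, and neither region was called. Without KO replicate 2 there were 12 calls, in a fit that called 14.3% of all tested regions lower. Without WT replicate 2 or KO replicate 1 there were 4, against 2.52% and 1.56% of all. Outside Slc25a37 the most negative values were at Tfrc region 11, Glrx5 region 1 and Glrx5 region 8, each with a log2 difference of -0.42 and adjusted p of 0.149, 0.0762 and 0.0967 in limma. The Tfrc start had 17.4 and 18.5 times the library background in WT and 15.3 and 14.8 times in KO, a log2 difference of -0.27 (SE 0.081, adjusted p = 0.102). Its rank by fold was nonetheless higher in both KO libraries, while its scaled summit fragments were lower in both, by 0.11 in the fit (adjusted p = 0.495). Local background was lower in both KO libraries than in both WT libraries at 14 of the 30 regions, against 26.7% of all tested, and higher at none, against 27.1%.

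**Figure D4:**
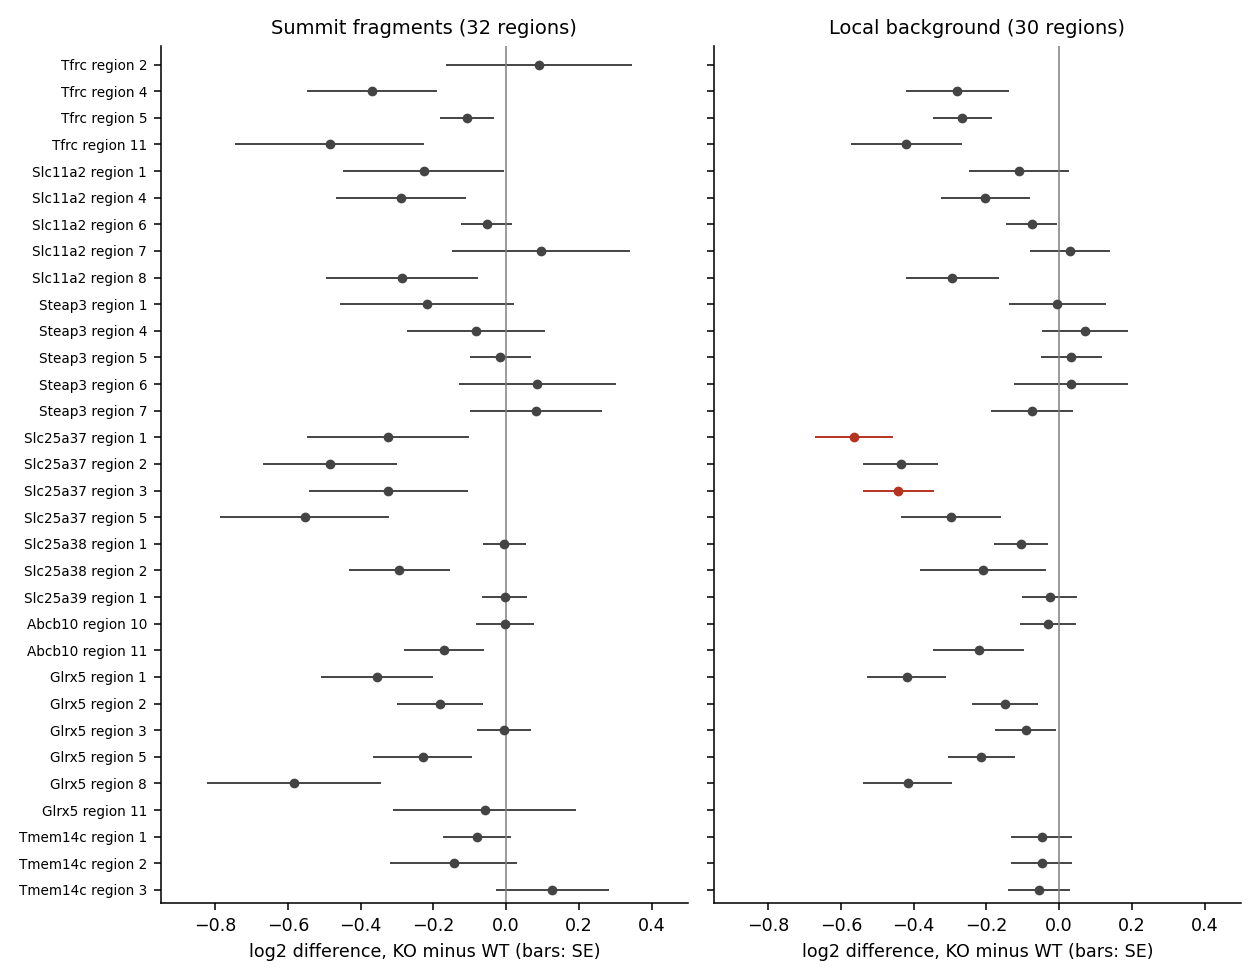
Fitted log2 difference, KO minus WT, with its standard error at the regions shared by all libraries, for summit fragments (left, 32 regions) and local background (right, 30 regions); red marks an adjusted p under 0.05. The red points are Slc25a37 regions 1 and 3 at -0.56 and -0.44, and the start regions of Slc25a38, Slc25a39 and Abcb10 sit near 0 on the left.

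**Figure D5:**
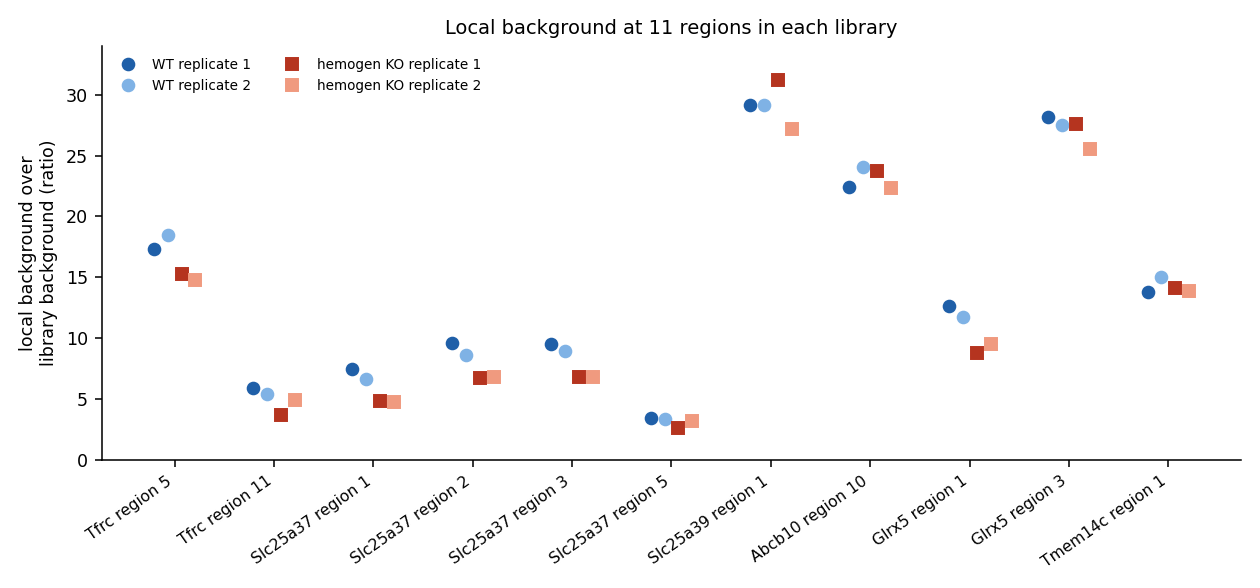
Local background as a multiple of the library background (y) at 11 regions (x) in each library, blue circles for WT and red squares for KO. Both KO libraries lie below both WT libraries at all 4 Slc25a37 regions, and the genotypes overlap at Slc25a39, Abcb10 and Tmem14c.

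Regions of cell type markers were compared in the same way. At 42 shared regions of 12 red cell precursor markers, 37 summit fragment differences were negative, with a median of -0.33. For the local background 39 of 40 were negative, with a median of -0.41. Over all regions, 50.2% of summit fragment differences were negative, and 57.2% away from gene boundaries. For local background these shares were 49.96% and 58.6%. Of the 40 red cell precursor marker regions, 4 were called lower, against 0.562% of all tested regions. Among hepatocyte markers 1 of 11 regions was called lower, among megakaryocyte markers 1 of 9 and among macrophage markers 0 of 2. The share of the red cell precursor markers in all summit fragments of shared regions was 179 and 162 per 100000 in WT and 130 and 155 in KO. That of the 9 genes was 154 and 152 in WT and 143 and 144 in KO. For hepatocyte markers 12 of 17 summit fragment differences were negative, with a median of -0.12. Local background was negative at 9 of 11, with a median of -0.13. The share of hepatocyte markers was 19.0 and 17.9 in WT and 16.6 and 18.1 in KO. The 3 shared regions of macrophage markers were 2 of Hmox1, also counted here among the genes of heme handling, and 1 of Csf1r. All 3 summit fragment differences were negative, with a median of -0.21. Their share was 8.01 and 7.82 in WT and 5.86 and 6.56 in KO, so it is mostly no separate measure of macrophages. For megakaryocyte markers, with 9 shared regions, the share was 27.8 and 25.9 in WT and 23.6 and 25.4 in KO. In each measure 6 of these 9 differences were negative, with medians of -0.13 for summit fragments and -0.055 for local background. The part of cell composition in the values of Slc25a37, Glrx5 and Tfrc was not tested.

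Around the 9 genes, 42 other genes of iron and heme handling had 162 regions, of which 91 were shared. All 8 genes of iron-sulfur cluster assembly and all 11 of the mitochondrial heme path had a boundary peak in all 4 libraries, as did 9 of 12 import genes and 5 of 11 genes of storage, export and regulation. Slc39a8, Tfr2, Exoc6, Fth1 and Ireb2 had no boundary peak, but a summit within 1 kb of a transcript start in all 4 libraries. The classes therefore differed partly in where the outermost boundary lies. Of the 162 regions, 2 were found in WT only, near Pcbp2 and Lyrm4, against 2.2% of all regions, and 1 in KO only, near Flvcr2, against 1.41%. In limma, none of the 91 regions passed for summit fragments, against 0.269% lower and 0.753% higher over all regions. Of the 91 differences, 62 were negative. For local background 3 of 76 fell, against 0.562% of all tested regions, and none rose, against 1.14%: a region of Fam210b, a mitochondrial protein that aids iron delivery in red cell precursors (log2 difference -0.67, adjusted p = 0.0225), 1 of Pcbp1, an iron chaperone (-0.65, adjusted p = 0.0422), and 1 of Trf, transferrin, also counted here among the hepatocyte markers (-0.74, adjusted p = 0.0242). Their levels in KO were 0.629, 0.635 and 0.600 times those in WT.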

How the data were processed

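Peak lists of 4 ATAC-seq libraries were used, each called on its own library. The submitters' processing notes name MACS2 2.2.7.1, Picard 2.21.4, Bowtie2 2.3.5 and SAMtools 1.9; their settings and the genome build were not given in the sources available. The score the authors deposited equals −log10 q multiplied by 10 and cut to a whole number, and the highest q was 0.0489. For fold enrichment, the authors' MACS2 ratio compares summit fragments with the local background at that peak, after adding 1 to each. Every peak also carries −log10 p and −log10 q as deposited by the authors. Fold served as a percentile within a list, and as a rank among the 27473 regions shared by all lists.

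Genes came from a RefSeq table of GRCm38.p6 without strand; it held 21770 protein-coding genes on the 21 chromosomes kept. Summits within 1 kb of a transcript start in the promoter table made up 26.8% to 34.5% of a list, against 4.59% to 4.71% after a shift of 20 kb. Every member was described, with its boundary regions, its region of highest rank and its regions of 1 genotype; other named regions were chosen after their values were seen. The members and gene lists were chosen with earlier results of these data known.

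Fragments and local background were recovered by inverting fold and −log10 p, and the rank, recovery and limma steps were tested on simulated data. Library values were compared by exact permutation over 6 relabelings. Region values were compared with limma 3.58.1 in R 4.3.3, cyclic loess scaling and Benjamini-Hochberg adjustment over all tested regions. Python 3.11.15 was used elsewhere. A peak list gives no total depth, so no interval on it was computed. Replicates of equal number correlated at -0.17 in their deviations. The deeper library was replicate 1 in WT and replicate 2 in KO, so this value cannot tell whether the numbers paired the libraries. Equal list lengths, stricter lists, other merging, other ranks, other scalings, a replicate block and each library left out were tried.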

Additional observations from a re-analysis of the deposited data

How the results depend on the processing

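Over the 61 regions, the count present in WT only was 0 with lists of equal length by fold or by −log10 q and in the upper 50% of each list by fold, and 2 with summits joined within 250 bp. The count present in KO only was 0 with lists of equal length by fold and in the upper 50%, and 2 with joined summits. The count ranked lower in KO was 5 with lists of equal length by fold, 3 in the upper 50%, 3 with within-list percentiles and 13 by summit fragments. The count ranked higher was 2 in the upper 50%, 1 with within-list percentiles, 0 by −log10 q and 0 by summit fragments. With a replicate block the counts were 9 lower and 6 higher, and with the crossed numbers, an alternative chosen after seeing the data, 10 lower and 11 higher. Leaving out a library gave 1 to 10 regions in WT only (2 without WT replicate 1, 10 without WT replicate 2, 6 without KO replicate 2) and 1 to 2 in KO only (2 without WT replicate 2 or KO replicate 2). It gave 10 to 13 lower (13 without KO replicate 1) and 7 to 16 higher (7 and 9 without WT replicates 1 and 2, 8 and 16 without KO replicates 1 and 2). Except for the ranking by summit fragments, the shares of all regions under these settings were not computed. The counts therefore show how the calls moved, and not whether they exceeded the rate over all regions.

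In limma, the summit fragment count lower in KO was 0 under every scaling and block. Over all regions, 1.57% were called lower with median scaling, 0.197% with quantile scaling, 1.07% with a replicate block and 5.38% with the crossed block. No region of the 9 genes was called higher under any scaling or block. For summit fragments these alternatives called 172 to 1196 of 27473 regions higher, and for local background 343 to 2070 of 19762. The local background count lower in KO was 5 with median scaling, 3 with quantile scaling, 4 with a replicate block and 12 with the crossed block, in fits that called 3.19%, 1.05%, 3.18% and 12.6% of all tested regions lower. It was 1 to 12 with a library left out (1 without WT replicate 1, 4 without WT replicate 2 or KO replicate 1, 12 without KO replicate 2). Slc25a37 regions 1 and 3 passed under 7 of 8 alternatives each, with adjusted p from 8.5e-08 to 0.165 and from 2.1e-06 to 0.230; the exception was WT replicate 1 left out. Slc25a37 region 2 passed under each other scaling and block, and Glrx5 region 1 under all of these but quantile scaling. Neither passed with 4 libraries, cyclic loess and no block. All alternatives refit the same 4 libraries, and most called a larger share of all regions, so the number passed is no independent evidence. None of the 8 regions followed in every fit (Slc25a37 regions 1, 2, 3 and 5, Glrx5 regions 1 and 8, Tfrc regions 4 and 5) changed direction. Some of them were chosen after their values were seen, the fits share libraries, and a block leaves the fitted difference unchanged. Their constant direction is therefore no independent evidence. Over all 32 regions the negative summit fragment differences numbered 20 with median scaling and 27 with cyclic loess. The cause of these shifts was not tested. Fits that leave 1 library in a genotype assume that it varies like the other genotype's libraries. A region has a value only where a peak was called, so weak regions of the shallow lists were not measured.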
